A study of Homo sapiens with 12 samples.

Results

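Stabilisation of Dam-LaminB1 in cells that express the GFP tracer was described from 4 of the 12 RNA-seq libraries of the series. These were the 2 libraries of the tracer with Dam-LaminB1 and Shield1, called GFP_tracer_Dam, and the 2 of the tracer alone, called GFP_tracer. They were chosen by the sample number that starts each count column, and were read as 2 pairs, one in each of 2 sets of libraries that reuse the same 6 index sequences. All came from 1 clone of HT1080, a human fibrosarcoma line, named m6A-Tracer in the labels. Both groups were grown for 3 days with doxycycline, at 50 ng/ml in the labels, and then for 24 h without it, which induces the tracer. GFP_tracer_Dam also received 500 nM Shield1 during those 24 h, and GFP_tracer received none. The uninduced state of the same clone, GFP_uninduced, stayed in doxycycline for 4 days without Shield1 and is given as the background level. The second clone, with a tracer fused to the VP16 activation domain, was used only as the comparison most like it. In these groups the ligand Shield1, the Dam-LaminB1 protein, adenine methylation and tracer binding came together and cannot be told apart. The design text calls the second library of a group a biological replicate but does not say whether the cultures were separate, so p-values measure only how far these libraries scatter, and that scatter may be technical. Where a gene or gene list is given a pair of values, the first is for index set 1 and the second for index set 2, unless stated otherwise.

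Lamin B1 is a filament protein that lines the inside of the nuclear envelope, and chromatin that touches it is mostly gene-poor, silent and marked by dimethylation of histone H3 lysine 9. Dam is a bacterial enzyme that methylates adenine in the sequence GATC, so a Dam fusion to lamin B1 writes a mark on DNA that touches the lamina. The tracer is a GFP fusion that binds this mark and shows in living cells where the marked DNA lies. Shield1 is a small ligand of a destabilising domain derived from the FKBP12 protein, and it protects a protein fused to that domain from degradation. The comparison therefore asks what else in the transcriptome differs when the reporter system is completed, which the authors' files answer gene by gene.

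The GFP_tracer and GFP_tracer_Dam libraries of index set 1 stood apart from the other libraries before any pair was compared. On the first principal component, which held 45.4% of the variance, they lay at -78.2 and -87.0, against -16.2 for GFP_uninduced of that set and -2.83 to 41.0 for the other 9. Genes of the integrated stress response marked the same 2 libraries. DDIT3, the stress transcription factor CHOP, stood at 93.6 CPM in GFP_tracer and 77.4 in GFP_tracer_Dam of index set 1, but at 4.74 and 5.36 CPM in index set 2. ASNS, asparagine synthetase, was at 340.9 and 420.4 CPM in index set 1 and at 66.9 and 69.8 in index set 2. The pair of index set 1 was thus measured within stressed libraries and the pair of index set 2 within unstressed ones, and each result below is given for both. The 4 libraries held 20022620 to 24063765 counts, and those of index set 1 held less of the fibroblast and mesenchymal marker list, which summed to 5314 and 5593 CPM against 6991 and 7314. Of that list's 18 markers in the table, 11 had at least 10 counts in every GFP library and none was at 0 in all 4. Blood (1.31 to 4.95 CPM), neural (20.4 to 22.9 CPM), epithelial (196.4 to 248.5 CPM) and endothelial (70.4 to 138.4 CPM) markers summed to less, with PTPRC and ELAVL4 at 0 in all 4. In bulk RNA, fewer cells of a kind and less RNA per cell cannot be told apart.

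No gene passed when the 4 libraries were compared as 2 groups of 2. Of 17262 genes tested with edgeR's quasi-likelihood test and Benjamini-Hochberg adjustment, 0 had an adjusted p under 0.05, a background of 0%. At an unadjusted p under 0.05 there were 80, below the 863.1 expected if no gene differed. DESeq2 also called 0, with 32 at an unadjusted p under 0.05, and limma-voom 0, with 68. With each tracer and Dam-LaminB1 pair as a block, over the 8 libraries of both clones, 0 passed and the smallest edgeR adjusted p was 0.662. There, 1271 had an unadjusted p under 0.05, above the 863.1 expected if no gene differed. The median SE of a log2 change was 0.29 without the block and 0.11 with it. Counts of 0 from a fit that holds the outlying pair do not show that no gene changed. Without that pair, an alternative added after the data were seen, 0 genes passed, and 1 passed when the index set was added as a block. That leaves 1 GFP_tracer_Dam library against 1 GFP_tracer library, both of index set 2, which are assumed to vary like the libraries of the other groups.

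The pairs differed from each other in how many genes lay apart. A gene was counted when GFP_tracer_Dam differed from GFP_tracer by more than 1.5-fold within the pair, among the 10980 genes at a mean of at least 5 CPM over the 4 libraries. Values are differences of log2 CPM with a prior count of 2, and with 1 library per arm they have no replicate check. In index set 1, 138 genes were higher (1.26% of genes) and 156 were lower (1.42%), 294 in all (2.68%). The pair of index set 2 had 6 higher (0.0546%) and 9 lower (0.082%), 15 in all (0.137%). The standard deviation of the differences over these genes was 0.23 in the first pair and 0.11 in the second. The VP16 pairs had 0.16 and 0.11, with 46 higher (0.419%) and 18 lower (0.164%) genes in the first and 18 (0.164%) and 9 (0.082%) in the second.

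**Figure D1:**
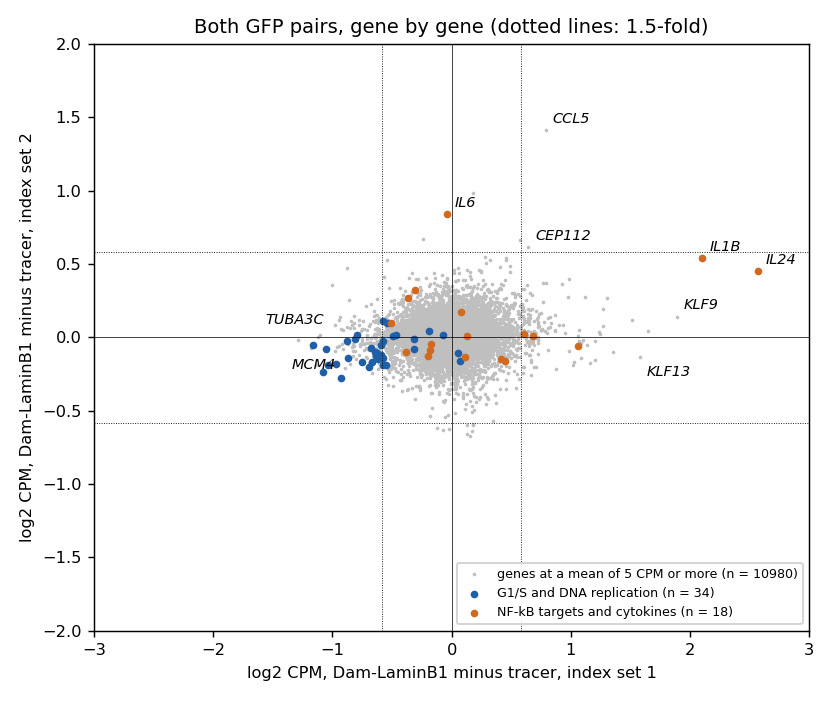
Each point is a gene, placed by the log2 CPM difference between GFP_tracer_Dam and GFP_tracer in index set 1 (horizontal) and index set 2 (vertical). Genes of DNA replication (blue) lie to the left of 0 near the horizontal axis, IL24 and IL1B lie far to the right, and only CCL5 and CEP112 lie past 1.5-fold (dotted) in the same direction in both pairs.

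What the pairs shared was small. CCL5 and CEP112 were past 1.5-fold higher in both, 2 of 10980 genes (0.0182%), and no gene was past it lower in both or in opposite directions. CCL5 (chromosome 17, 34198495 to 34207797, GRCh37) encodes a chemokine that attracts T cells and monocytes. It stood at 9.72 CPM in GFP_tracer and 16.9 in GFP_tracer_Dam of index set 1, and at 0.325 and 1.01 CPM in index set 2. Both libraries of index set 1 were above both of index set 2, so the groups overlapped although the direction was shared. The index set 2 values rested on 7 and 24 counts, so the ratio was 3.11 and its exact 95% interval, which covers counting error only, ran from 1.30 to 8.56. The counts of index set 1 were 198 and 414, and the ratio was 1.74 (1.46 to 2.07). GFP_uninduced had 6.48 and 0.916 CPM, so in index set 2 the GFP_tracer_Dam library was near the uninduced level and the GFP_tracer library was the low one.

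CEP112 (chromosome 17, 63631656 to 64188194, GRCh37), a protein of the centrosome, unlike CCL5 had groups that did not overlap, and its 2 ratios lay within each other's counting intervals. GFP_tracer held 5.20 and 5.71 CPM and GFP_tracer_Dam 8.18 and 8.81 in index sets 1 and 2. The ratios were 1.57 (counting interval 1.24 to 2.01) and 1.54 (1.23 to 1.94). Here too GFP_uninduced, at 7.19 and 8.84 CPM, lay beside GFP_tracer_Dam, and the 2 GFP_tracer libraries were the lowest of the 6. The log2 change over both pairs was 0.64 ± 0.21 (SE, edgeR unadjusted p = 0.0132) and its adjusted p was 1, so CEP112 did not pass. In the VP16 clone the pair differences of CEP112 were 0.00 and 0.26, against 0.64 and 0.62 in the GFP clone.

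At a lower limit of 0.32 on the log2 scale, which 1406 genes passed in index set 1 (12.8%) and 183 in index set 2 (1.67%), 24 genes were higher in both pairs (0.219%) and 5 were lower in both (0.0455%). Signals and their receptors stood among the 24: the cytokines IL1B and IL24 and the interleukin 2 receptor chain IL2RB. Proteins of the cell surface, matrix, cell junctions or cytoskeleton were ADAMTS9, a secreted protease, JUP, a junction protein of desmosomes, NTNG2, a netrin, and the keratin KRT79. Others were DUSP1, a phosphatase that switches off MAP kinases, SLC30A4, a zinc transporter, FICD, an enzyme that modifies the chaperone BiP, and RNF152, a ubiquitin ligase of lysosomes. ADAMTS9 went from 10.2 CPM in GFP_tracer to 20.2 in GFP_tracer_Dam in index set 1, and from 4.46 to 5.90 in index set 2. SLC30A4 showed nearly the same size in both, from 4.12 to 5.82 CPM and from 4.46 to 6.28 CPM. SHROOM4 went from 5.05 to 6.96 CPM and from 6.36 to 9.32. The groups did not overlap for SLC30A4 or SHROOM4, and they did for ADAMTS9. The 5 lower genes were ARHGAP6, CCDC9, JMJD4, KHDRBS3 and SNHG10, each with differences between -0.33 and -0.49. JMJD4, a hydroxylase of a translation release factor, went from 14.6 to 11.3 CPM and from 12.5 to 9.82. NAMPTL and SIGLEC14, also among the 24, have near-identical copies, and their values are uncertain.

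The 8 genes with the largest higher differences within the stressed pair, by the naming rule, were IL24, IL1B, KLF9, MIR210HG, KLF13, ITGA11, CNTN4 and WNT5A. IL24, a cytokine of the interleukin 10 family, stood at 5.73 CPM in GFP_uninduced, 32.4 in GFP_tracer and 193.4 in GFP_tracer_Dam of index set 1. Its values in index set 2 were 0.916, 1.49 and 2.07 CPM, the last 2 from 32 and 49 counts. IL1B, the inflammatory cytokine interleukin 1 beta, was at 31.1, 191.6 and 821.6 CPM in the same order in index set 1, and at 24.1, 20.1 and 29.3 CPM in index set 2. Both genes were thus highest in the GFP_tracer_Dam library of index set 1, by a ratio of 5.96 (counting interval 5.49 to 6.48) for IL24 and 4.29 (4.14 to 4.44) for IL1B. The ratios in index set 2 were 1.39 (0.873 to 2.24) and 1.46 (1.29 to 1.65). KLF9, a transcription factor that glucocorticoid and thyroid hormones induce, went from 34.1 to 126.5 CPM in index set 1 and from 28.9 to 31.9 in index set 2. KLF13, of the same family, went from 4.32 to 13.1 CPM and from 6.92 to 6.28. MIR210HG, the noncoding host transcript of a microRNA, went from 1.72 to 5.58 CPM and from 7.94 to 8.18.

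The other genes of those 8 act at the cell surface or outside the cell. ITGA11, a collagen-binding integrin, went from 38.5 to 110.3 CPM in index set 1 and from 53.02 to 57.55 in index set 2. WNT5A, a secreted ligand of noncanonical Wnt signalling, went from 31.3 to 77.1 CPM and from 28.3 to 34.1. CNTN4, a neural adhesion protein, went from 9.03 to 23.2 CPM and from 1.95 to 1.81. PTPRK and PTPRM, receptor tyrosine phosphatases at cell contacts that pass the test between the pairs given further on, went from 154.6 to 324.6 CPM and from 133.1 to 232.6 in index set 1. The same genes in index set 2 went from 123.2 to 121.3 and from 92.4 to 101.4 CPM. For ITGA11, WNT5A and PTPRM the set 2 difference was positive and below 0.32, and for CNTN4 and PTPRK it was negative.

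The 8 genes with the largest lower differences in the stressed pair were TUBA3C, ANKRD1, MCM4, EGR1, TCF19, BRI3BP, UNG and CLSPN. TUBA3C, an alpha tubulin with near-identical copies, went from 33.6 to 13.7 CPM and from 104.1 to 102.8. ANKRD1, a target of the YAP coactivator, went from 93.2 to 41.0 CPM and from 29.8 to 28.2, and the list of YAP and TGF-beta targets had medians of -0.12 and 0.05. MCM4, a subunit of the helicase that opens DNA for replication, stood at 443.8 CPM in GFP_uninduced, 179.8 in GFP_tracer and 80.5 in GFP_tracer_Dam of index set 1. The other set had 458.1, 486.9 and 469.6 CPM. E2F1, a transcription factor of entry into S phase that is a member of the G1/S list and not of those 8, was at 76.7, 45.2 and 23.7 CPM in index set 1 and at 78.6, 85.5 and 70.6 in index set 2. Both genes were lowest in the GFP_tracer_Dam library of index set 1, and the 3 libraries of index set 2 lay close together. UNG, the uracil glycosylase that removes uracil from DNA, went from 29.9 to 14.1 CPM and from 73.1 to 62.2. CLSPN, the checkpoint adaptor claspin, went from 34.9 to 16.7 CPM and from 84.9 to 80.2. TCF19, a gene expressed at the border of G1 and S, went from 17.3 to 7.94 CPM and from 42.7 to 42.8. EGR1, an immediate-early transcription factor, also was lower in index set 1, from 34.2 to 15.5 CPM, and had 1.02 and 0.885 CPM in index set 2.

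**Figure D2:**
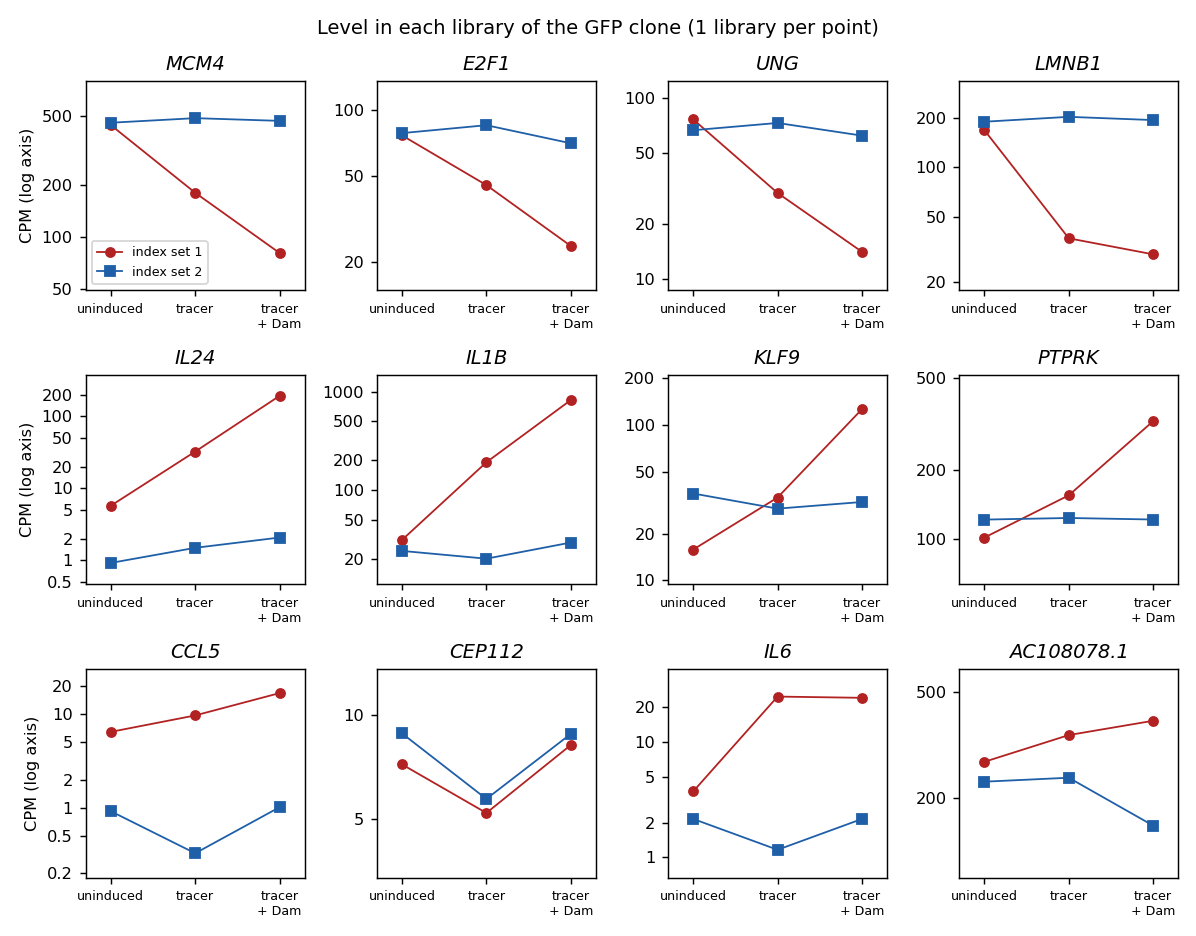
CPM on log axes in the 6 libraries of the GFP clone, 1 point per library, for 12 genes, with index set 1 in red circles and index set 2 in blue squares. MCM4, E2F1 and UNG step down and IL24, IL1B and KLF9 step up from uninduced to tracer to Dam-LaminB1 in index set 1, whereas CEP112 dips in both GFP_tracer libraries.

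The 34 genes of G1/S and DNA replication were the list with the lowest median in the stressed pair. They differed by -1.16 to 0.07, with a median of -0.62 against -0.01 over all genes tested. Of the 34, 20 were past 1.5-fold lower (58.8%), against 4.46% of all genes tested, and 32 were negative. The median in index set 2 was -0.10 against 0.01 over all genes, the range was -0.28 to 0.11 and 27 were negative. None was past 1.5-fold in either direction there, against 3.38% of all genes tested higher and 3.85% lower. Over genes at a mean of at least 5 CPM, which all 34 reached, the shares there were 0.0546% and 0.082%. Having no member past it is thus close to the share over such genes. Positive members made up 5.88% and 20.6% in the 2 pairs, against 48.6% and 52.9% of all genes tested. In all, 25 members were lower in both GFP pairs, as were 4289 of all 17262 genes. Most members were negative in each pair on its own, so the 25 do not show direction to be shared gene by gene. The median difference was smaller in index set 2. GINS2, a subunit of the replicative helicase complex, went from 18.2 to 9.24 CPM and from 37.4 to 32.9. TK1, thymidine kinase, went from 88.5 to 59.2 CPM and from 151.2 to 137.1. CDC6, which loads the helicase onto origins, went from 76.4 to 41.6 CPM and from 107.6 to 105.8.

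The upstream sequences of these genes are shown as a description, since many are known to be bound by E2F factors. The search covered the letters TTTCCCGC, TTTCGCGC, TTTGCCGC and TTTGGCGC on both strands in the 250 bases before the start of each gene, from RefSeq on GRCh38.p14. Of the 34 genes 30 had an entry, and 13 of the 30 (43.3%) held at least 1 match, against 761 of 27305 (2.79%) of all upstream sequences of that length. The 13 were CDT1, DTL, E2F1, E2F2, GINS2, LIG1, MCM3, MCM6, MCM7, PCNA, POLA1, RFC3 and TYMS. A match is a description of the letters and shows no binding. The list was made of known G1/S genes, so a share above that of all upstream sequences can follow from how it was made. Members that differed were not compared with members that did not, and a part of E2F factors in the differences was not tested. The 3 below are E2F1 (chr20:33686386-33686635, minus strand), MCM3 (chr6:52284743-52284992, minus strand) and GINS2 (chr16:85688955-85689204, minus strand), with matches in capitals. The matches begin 33 and 20 bases before the start of E2F1, 174 before that of MCM3 and 31 before that of GINS2.
E2F1: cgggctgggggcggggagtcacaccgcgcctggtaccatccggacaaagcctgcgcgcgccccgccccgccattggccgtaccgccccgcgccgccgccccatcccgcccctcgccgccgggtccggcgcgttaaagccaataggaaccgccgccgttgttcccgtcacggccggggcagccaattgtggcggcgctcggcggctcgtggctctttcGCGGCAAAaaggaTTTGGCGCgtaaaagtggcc
MCM3: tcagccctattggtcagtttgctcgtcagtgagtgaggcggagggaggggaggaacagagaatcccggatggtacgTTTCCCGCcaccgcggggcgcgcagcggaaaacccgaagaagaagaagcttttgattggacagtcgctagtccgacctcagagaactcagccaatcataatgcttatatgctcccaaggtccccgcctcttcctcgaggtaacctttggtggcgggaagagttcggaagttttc
GINS2: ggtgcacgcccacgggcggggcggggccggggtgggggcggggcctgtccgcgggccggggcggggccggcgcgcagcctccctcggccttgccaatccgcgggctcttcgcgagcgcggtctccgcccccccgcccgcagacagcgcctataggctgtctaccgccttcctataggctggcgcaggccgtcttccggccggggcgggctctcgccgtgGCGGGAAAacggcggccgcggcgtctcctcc
MCM3, whose sequence holds 1 match, went from 117.6 CPM in GFP_tracer to 64.4 in GFP_tracer_Dam in index set 1 and from 228.5 to 206.9 in index set 2.

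Lists of DNA repair, mitosis, heat shock and sterol synthesis genes also lay lower in the stressed pair, but by less. Of 36 DNA repair genes 33 were negative, with a median of -0.36 and 9 past 1.5-fold lower (25%, against 4.46% of all genes tested). Their median in index set 2 was -0.02 and none was past it. EXO1, an exonuclease of mismatch repair, led them with 34.1 to 17.5 CPM in index set 1 and 64.2 to 61.2 in index set 2. Of 30 genes of G2/M and mitosis 29 were negative in index set 1, with a median of -0.28 and none past 1.5-fold, and 15 were positive in index set 2, with a median of 0.00. BIRC5, the survivin gene of the mitotic spindle, went from 115.5 to 79.4 CPM and from 208.6 to 195.0. Heat shock genes had medians of -0.29 and 0.01. HSP90AA1, the inducible cytosolic chaperone HSP90, went from 1173 to 762 CPM in index set 1 and from 2217 to 2249 in index set 2. Genes of sterol synthesis had medians of -0.19 and 0.07. Of their 23 members, 6 and 19 were positive (26.1% and 82.6%, against 48.6% and 52.9% of all genes tested). Their medians in the VP16 pairs were 0.04 and 0.06, so only the GFP pair of index set 1 had a negative one. In each of these 4 groups the pair of index set 2 showed a median within 0.07 of 0.

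Lists of matrix, protease, hypoxia and innate signalling genes had positive medians in index set 1. Extracellular matrix genes had medians of 0.22 and 0.05, with 27 and 26 of 35 positive (77.1% and 74.3%, against 48.6% and 52.9% of all genes tested). Of the 35, 6 were past 1.5-fold higher in index set 1 (17.1%, against 5.82% of all genes tested) and none in index set 2. LTBP3 and LTBP1, which hold TGF-beta in the matrix, went from 150.4 to 247.7 and from 166.8 to 254.0 CPM in index set 1. Their values in index set 2 stayed within 131.0 to 131.3 and 162.3 to 168.3 CPM. FBN1, the microfibril protein fibrillin 1, was unlike them: it differed by 0.21 and 0.23 in the 2 pairs, from 98.1 to 113.2 CPM and from 87.9 to 102.9. Matrix proteases and their inhibitors had medians of 0.33 and 0.09, with 17 and 19 of 21 positive. In index set 1, 1 member was past 1.5-fold higher and 1 lower (4.76% each, against 5.82% and 4.46% of all genes tested). Over genes at a mean of at least 5 CPM, which 16 of the 21 reached, the shares were 1.26% and 1.42%. The lower member, named after its value was seen, was ADAMTS1, with 10 and 5 counts. The higher one was MMP9, a gelatinase, which went from 111.3 to 256.2 CPM in index set 1 and from 31.1 to 27.9 in index set 2. MMP14, a membrane-bound collagenase, went from 1168 to 1644 CPM and from 858.4 to 883.6. Hypoxia and glycolysis genes had medians of 0.10 and 0.00 over 32 members. In index set 1, 3 of them were past 1.5-fold higher (9.38%, against 5.82% of all genes tested) and none lower. These were NDRG1, a stress-induced differentiation gene, from 569.4 to 1192 CPM and from 651.5 to 674.2, with VEGFA and PFKFB4, the last named after its value was seen. SLC2A1, the glucose transporter GLUT1, went from 289.0 to 425.0 CPM and from 236.5 to 239.2.

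Interferon-stimulated genes had medians of 0.24 and 0.02, and 28 of the 39 reached a mean of 5 CPM. In index set 1, 34 of 39 were positive (87.2%, against 48.6% of all genes tested). In index set 2, 22 of 39 were (56.4%, against 52.9%). Of the 39, 7 were past 1.5-fold higher in index set 1 (17.9%, against 5.82% of all genes tested) and none lower. In index set 2 none was past it higher and 1 lower (2.56%, against 3.85%), USP18 at 1.86 and 1.18 CPM. RSAD2, the antiviral enzyme viperin, went from 19.04 to 32.04 CPM in index set 1 and had 0.650 and 0.675 in index set 2. BST2, the tetherin that retains budding virus, went from 6.13 to 10.2 CPM and from 2.69 to 2.49. NF-kB targets and cytokines split in index set 1, where 7 of 23 were past 1.5-fold higher (30.4%, against 5.82% of all genes tested). Their median was 0.08, and 12 were positive (52.2%, against 48.6%). Of the 7, IL24, IL1B, IL1A, IL11 and IER3 reached a mean of 5 CPM, a naming made after their values were seen. IL8, LIF and IL6 of this list were not past it: IL8 went from 65.3 to 52.7 CPM, LIF from 128.9 to 171.5 and IL6 from 24.8 to 24.2. These 3 had been at 7.81, 43.0 and 3.73 CPM in GFP_uninduced of that set. In index set 2, 2 of the 23 were past 1.5-fold higher (8.7%, against 3.38% of all genes tested) and 1 lower (4.35%, against 3.85%). There IL6 went from 1.16 to 2.15 CPM, from 25 counts to 51, a ratio of 1.85 (1.13 to 3.12), and IL8 from 5.06 to 6.37. CCL2, a monocyte chemokine under the CPM limit, went from 2.21 to 4.52 CPM in index set 1 and from 2.93 to 4.13 in index set 2.

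Genes of the integrated stress response are given next, since they marked both libraries of index set 1. Their 43 members had medians of 0.06 and 0.00. CHAC1, a glutathione-degrading enzyme, went from 81.1 to 76.0 CPM and from 4.64 to 4.72. In index set 1, 2 members were past 1.5-fold higher (4.65%) and 1 lower (2.33%). The shares over all genes tested were 5.82% and 4.46%. Over genes at a mean of at least 5 CPM, which 41 of the 43 reached, they were 1.26% and 1.42%. The higher ones were VEGFA and STC2, the latter named after its value was seen. VEGFA, the vascular growth factor, went from 516.4 to 875.8 CPM in index set 1 and from 181.5 to 188.5 in index set 2. The lower one was ATF5, a transcription factor of this response, from 24.68 to 14.98 CPM and from 38.4 to 35.0. In index set 2, 1 member was past 1.5-fold higher (2.33%, against 3.38% of all genes tested), at 0.96 on the log2 scale. None was past it lower there, against 3.85% of all genes tested. Targets of p53 had medians of 0.09 and 0.03, and ER chaperones of 0.07 and 0.06. TP53INP1, a p53 target of autophagy and cell death, was positive in both, from 49.4 to 70.1 CPM and from 24.7 to 30.5. SEC24D, a coat protein of vesicles that leave the ER, was too, from 39.7 to 55.6 CPM and from 52.0 to 59.5.

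**Figure D3:**
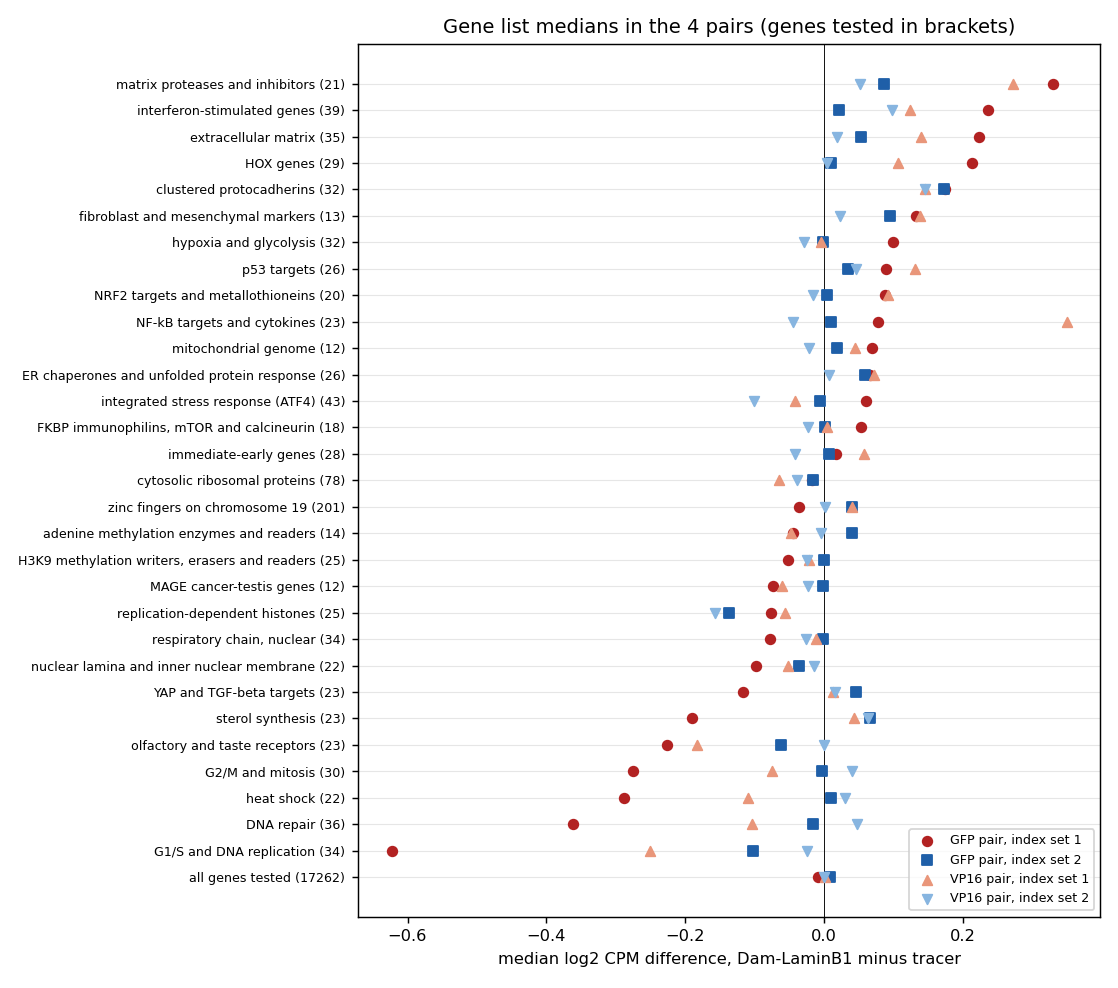
Median log2 CPM difference of each gene list with at least 12 genes tested, in the 2 GFP pairs (red circles, blue squares) and the 2 VP16 pairs (pale triangles), with all genes tested in the bottom row. Lists reach -0.62 in the GFP pair of index set 1, while those of the GFP pair of index set 2 lie between -0.14 and 0.17.

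The lamina, the target of the fusion, was measured through 22 genes, among them MAN1A1, a mannosidase of the Golgi that the list held in error. Their medians were -0.10 and -0.04, and none was past 1.5-fold in either pair. LMNB1 itself cannot report on the fusion, since reads of the native gene and of the fusion cannot be told apart and Shield1 acts on the protein. LMNB1 stood at 168.1 CPM in GFP_uninduced, 36.9 in GFP_tracer and 29.5 in GFP_tracer_Dam of index set 1, and at 189.1, 202.5 and 193.5 in index set 2. It was therefore low in both outlying libraries, whichever group they belonged to. LMNB2, the second B-type lamin, went from 286.2 to 198.1 CPM and from 642.6 to 598.5. LMNA, the A-type lamin gene, went from 598.9 to 605.2 and from 747.9 to 732.1 CPM. The lamin B receptor LBR went from 75.1 to 65.5 and from 150.8 to 151.9, and emerin, EMD, from 29.9 to 34.2 and from 32.9 to 31.3. Of the 22, 9 were lower and none higher in both pairs, where 4289 and 4555 of all 17262 genes were. Positive members made up 22.7% and 36.4% in the 2 pairs, against 48.6% and 52.9% of all genes tested. Most members were thus negative in each pair on its own, and the 9 do not show direction to be shared gene by gene. PRR14, a protein that tethers heterochromatin to the lamina, differed by -0.18 and -0.19.

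Genes that write, erase or read H3K9 methylation had medians of -0.05 and 0.00 over 25 members. In index set 1, 1 was past 1.5-fold lower (4%). The share was 4.46% over all genes tested and 1.42% over genes at a mean of at least 5 CPM, which all 25 reached. The lower member, named after its value was seen, was UHRF1, a reader of H3K9 methylation at replicating DNA, from 40.0 to 21.2 CPM and from 119.8 to 113.2. EHMT2, the G9a enzyme that dimethylates H3K9, went from 54.9 to 42.0 CPM in index set 1 and from 108.2 to 104.5 in index set 2. Its partner EHMT1 went from 59.5 to 56.2 and from 89.6 to 91.4 CPM. KDM3A, which removes the same mark, went the other way in index set 1, from 40.4 to 59.6 CPM, and from 78.1 to 74.4 in index set 2. Enzymes and readers of adenine methylation had medians of -0.05 and 0.04, with none of 14 past 1.5-fold in either pair. FKBP1A, which encodes the FKBP12 protein from which the Shield1-binding domain derives, went from 218.1 to 231.1 CPM and from 213.1 to 225.7. Its differences were 0.08 in both pairs, and the list of FKBP, mTOR and calcineurin genes had medians of 0.05 and 0.00.

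Gene families that often lie in silent chromatin at the lamina were also read. Clustered protocadherins, adhesion proteins of which a neuron expresses a subset, had medians of 0.18 and 0.17 over 32 genes tested and were thus nearly equal. Only PCDHGB4 and PCDHGC3 of the 32 reached a mean of 5 CPM. Summed over 49 genes, the GFP_tracer libraries held 140.3 and 156.5 CPM and the GFP_tracer_Dam libraries 164.5 and 168.4, so the groups did not overlap. GFP_uninduced held 147.5 and 180.8 CPM, which spanned them. The VP16 pairs showed the same direction, from 167.9 to 191.7 and from 173.9 to 179.6 CPM. PCDHGB7 and PCDHGA1 were positive in both GFP pairs, from 2.01 to 3.34 and 2.28 to 3.04 CPM for the first and from 1.82 to 3.34 and 0.882 to 1.43 for the second. Their exons share sequence with neighbours of the cluster, so single members are uncertain. HOX genes had medians of 0.21 and 0.01. HOXC4 had 0.491 and 1.10 CPM in index set 1 and 0.464 and 0.843 in index set 2, with an edgeR log2 change of 1.02 ± 0.30 (SE, unadjusted p = 0.00821, adjusted p = 1). Olfactory and taste receptors summed to 80.7 and 67.8 CPM in index set 1 and 78.0 and 77.5 in index set 2.

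Position along the genome was described by the number of annotated genes that start within 500 kb of a gene. In index set 1 the median difference was -0.04 in the gene-poorest quartile and -0.01 in the gene-richest, and in index set 2 0.03 and -0.02. The order was thus opposite in the 2 pairs, and each step was small beside the interquartile range of 0.25 in the first and 0.13 in the second. Genes past 1.5-fold made up 3.51% of the gene-poorest quartile and 2.36% of the gene-richest in index set 1, and 0.177% and 0.0748% in index set 2. The shares of index set 2 rest on 2 higher and 3 lower genes in the gene-poorest quartile and 1 and 1 in the gene-richest. Counted within 250 kb, they were 0.127%, 0.196%, 0.189% and 0.0382% from the gene-poorest to the gene-richest quartile, so these few genes give no order. Genes with 0 counts in GFP_tracer and at least 10 in GFP_tracer_Dam numbered 2 of 9653 in index set 1, TKTL1 and RP11-66N11.8, with 11 and 10 counts. Those of index set 2 numbered 3 of 10894, CYP4A22-AS1, VN1R108P and RP11-80G7.1, with 10 to 11 counts, and none was shared. No gene went from at least 10 counts to 0 in either pair.

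To give each pair a test, the 4 libraries were each fitted as their own coefficient, with a block for the index set, and the spread was taken from the other 8 libraries. A single library is thereby assumed to vary as those do, and 3 residual degrees of freedom remained. In index set 1, 148 genes passed as higher (0.857%) and 266 as lower (1.54%), 414 in all (2.4%), at an edgeR adjusted p under 0.05. For index set 2, 1 of 17262 passed (0.00579%). The G1/S list had 19 of 34 members passing as lower, DNA repair 12 of 36, G2/M 7 of 30, heat shock 5 of 22 and sterol synthesis 4 of 23, and no member of these 5 lists passed as higher. Extracellular matrix had 7 of 35 passing as higher and none as lower. MCM4 differed by -1.16 ± 0.09 (SE, edgeR adjusted p = 5.63e-05) and PTPRK by 1.07 ± 0.08 (SE, edgeR adjusted p = 5.63e-05). Among the list-leading genes named above, IL24 (2.58 ± 0.68, edgeR adjusted p = 0.24) and IL1B (2.10 ± 0.71, edgeR adjusted p = 0.328) did not pass, although their differences were the largest. DUSP1 was both past 0.32 in each pair and called in index set 1, at 0.93 ± 0.13 (SE, edgeR adjusted p = 0.00324). LMNB2 passed as lower (-0.53 ± 0.08, edgeR adjusted p = 0.00356), EHMT2 did (-0.39 ± 0.08, edgeR adjusted p = 0.0227), KDM3A passed as higher (0.56 ± 0.12, edgeR adjusted p = 0.0285), and LMNB1 did not (-0.32 ± 0.14, edgeR adjusted p = 0.279). Without that block none of the 414 calls remained, and leaving out 1 of the other 8 libraries moved the count from 102 (either VP16_uninduced library) to 1679 (GFP_uninduced of index set 2), so the count is not firm.

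The 1 gene that passed in index set 2 rested on 1 library. MIR663B had 301 counts in GFP_tracer of index set 2 and 4 to 10 in each of the other 5 GFP libraries, among them 4 in GFP_tracer_Dam of that set (log2 difference -6.33 ± 0.42, edgeR adjusted p = 7.75e-06). Its locus lies at chromosome 2, 133014539 to 133014653 (GRCh37). Of the 9 genes past 1.5-fold lower in index set 2, 3 are annotated as rRNA pseudogenes, and BEST3, a chloride channel, and TPPP, a tubulin-binding protein, are the protein-coding ones. RN18S1, named for 18S rRNA but annotated only as a pseudogene, is also among the 9, with differences of 0.15 and -0.67. BEST3 went from 4.88 to 3.12 CPM and TPPP from 5.57 to 3.58 in index set 2, and each was within 0.08 of 0 on the log2 scale in index set 1. AC108078.1, an rRNA pseudogene, went from 237.8 to 157.2 CPM in index set 2 and from 343.8 to 389.0 in index set 1. Over all rRNA pseudogenes the share of counts was 0.376% in GFP_tracer and 0.285% in GFP_tracer_Dam of index set 2, and 0.488% and 0.543% in index set 1. Such copies share reads, and their part in the count of lower genes was not tested. On the higher side, the genes past it in index set 2 beside CCL5 and CEP112 were IL6, ALOXE3, ZNF620 and AL583842.7. ALOXE3, a lipoxygenase of the skin barrier, had 5 and 13 counts there, for a ratio of 2.36 (0.79 to 8.46).

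Whether the pairs differ was tested in the same fit. Of 17262 genes, 16 passed (0.0927%), 6 with the higher difference in index set 1 (0.0348%) and 10 with the lower (0.0579%). The 6 were KLF13, NTN4, PTPRK, TLE3, PTPRM and PLEC. Among the 10 were SHMT1, TUBA3C, MCM4, CLSPN, FIGNL1, THOP1, MCM3, ANXA1 and HSP90AA1, of which MCM4, CLSPN, MCM3 and FIGNL1 act in replication or repair. PTPRK differed between the pairs by 1.09 ± 0.12 (SE, edgeR adjusted p = 0.0026) and MCM4 by -1.11 ± 0.13 (SE, edgeR adjusted p = 0.00303). For CCL5, CEP112, IL24 and IL1B the difference between the pairs did not pass (edgeR adjusted p = 0.78, 0.988, 0.842 and 0.792). Without the block no gene passed. Leaving out 1 of the other 8 libraries gave 2 (either VP16_uninduced library) to 515 (GFP_uninduced of index set 2), and TUBA3C has near-identical copies.

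The VP16 clone offers a pair in each index set that shares no library with the GFP pairs. Of the 138 genes higher in the GFP pair of index set 1, 128 (92.8%) were also positive in the VP16 pair of index set 1, against 47% of all genes, and 18 were past 1.5-fold there. The GFP pair of index set 2 had 92 of them positive (66.7%, against 55.7% of all genes) and the VP16 pair of index set 2 had 80 (58%, against 49.9%). Of the 156 lower genes, 136 (87.2%, against 53%) were negative in the VP16 pair of index set 1, 94 (60.3%, against 44.3%) in the GFP pair of index set 2 and 78 (50%, against 50.1%) in the VP16 pair of index set 2. Across the 10980 genes, Pearson's r of the differences was 0.45 between the clones in index set 1, 0.15 between the clones in index set 2 and 0.09 between the 2 GFP pairs. These are descriptions across genes, which are not independent replicates, and libraries of one index set also deviate together from their group means. The stressed GFP pair thus shared more with the other clone in its own index set than with its own repeat.

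**Figure D4:**
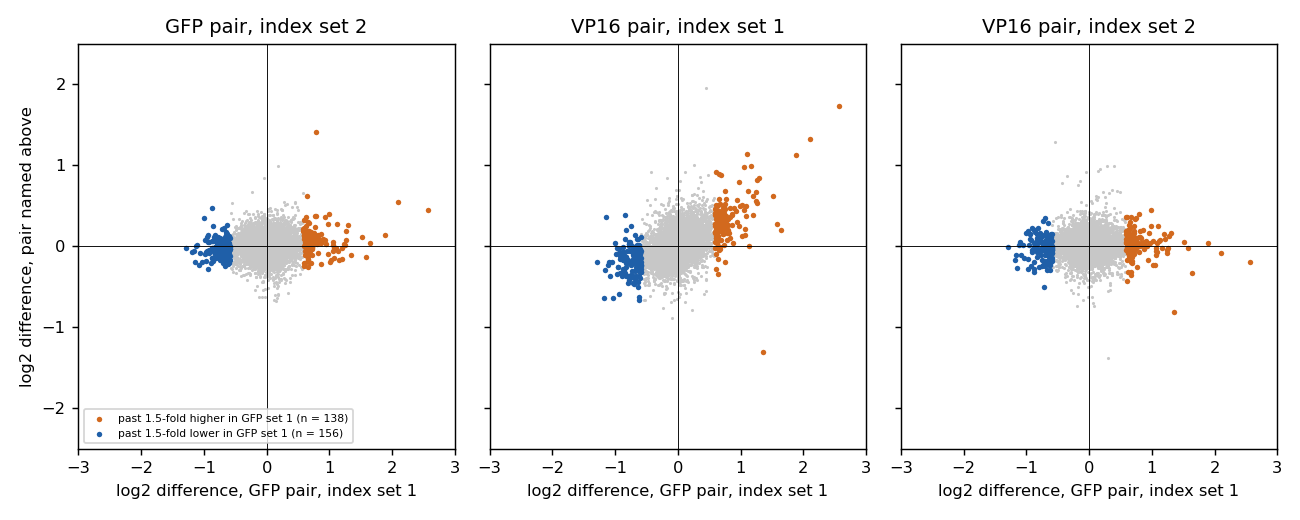
The GFP pair of index set 1 (horizontal, log2 CPM difference) against each of the other 3 pairs (vertical), 1 point per gene, with the 138 higher genes in orange and the 156 lower in blue. The coloured points follow the diagonal direction only in the middle panel, the VP16 pair of index set 1, where 128 of 138 and 136 of 156 keep their sign.

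Single genes showed the same in the VP16 clone. IL24 went from 11.8 to 39.3 CPM in the VP16 pair of index set 1 and from 9.12 to 7.97 in that of index set 2. IL1B went from 192.0 to 480.5 and from 311.8 to 294.1 CPM, and KLF9 from 46.6 to 102.3 and from 78.6 to 80.9. All 3 were higher in the Dam-LaminB1 library of both clones in index set 1. In index set 2, IL24 and IL1B were higher in the GFP clone and lower in the VP16 clone, and KLF9 differed by 0.14 and 0.04. WNT5A went from 41.8 to 75.2 and from 60.2 to 67.4 CPM. E2F1 was lower in all 4 pairs, by 0.93 and 0.28 on the log2 scale in the GFP clone and by 0.58 and 0.24 in the VP16 clone, but MCM4 was lower by 0.29 and 0.11 in the VP16 clone against 1.16 and 0.05. CNTN4 was unlike the rest, from 9.03 to 23.2 CPM in the GFP pair of index set 1 and from 0.944 to 0.331 in the VP16 pair. G1/S genes had medians of -0.25 and -0.02 in the VP16 pairs and NF-kB targets 0.35 and -0.05. No gene of 17262 passed for the difference between clones (edgeR, 0%). At an unadjusted p under 0.05 there were 50 without a block and 447 with each pair as one, against 863.1 expected if no gene differed. None passed for the mean over both clones either (edgeR, 0%), where the unadjusted counts were 101 and 1653. DESeq2 and limma-voom likewise gave no call for these comparisons.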

How the data were processed

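Per the labels' protocols, Trizol was used to extract RNA, and the Illumina TruSeq RNA kit to make the libraries. Per the submitters' processing notes, TopHat 1.4.0, Bowtie 0.12.7 and HTSeq were used, with GRCh37. How HTSeq treated overlaps and strand is not given in the sources used here, so antisense partners, overlapping genes and near-identical copies are uncertain. The authors deposited whole-number read counts for 36502 genes, not normalized. Library totals ran from 18774905 to 24827396.

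Genes were kept by filterByExpr (17262) and scaled by TMM in edgeR 4.0.16 under R 4.3.3. All 12 libraries entered a robust quasi-likelihood fit in which each group had a coefficient, with 6 residual degrees of freedom, and Benjamini-Hochberg adjustment at 0.05. SE was taken as the size of the change over the root of its F statistic. The pairing comes from the index sequences in the titles: deviations from group means correlated within an index set for all 15 pairs of groups (0.415 to 0.858; GFP_tracer with GFP_tracer_Dam 0.858). Replicates were not duplicates: chi-square over its degrees of freedom was 19.6 to 126.3. DESeq2 1.42.0 and limma 3.58.1 were alternatives. Scripts were tested on simulated data. Counting intervals are at 95%.

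The members, the 35 gene lists and the tests were chosen with earlier results of these data known. Genes were named by rule: those past 1.5-fold in both pairs, up to 8 per direction and pair by size, up to 4 per list by smallest p, up to 5 per direction that pass between the pairs, and 8 lamina, H3K9 and FKBP genes. Other genes named were chosen after their values were seen. A few genes that the rule takes are not reported here. CPM is not adjusted for gene length, so levels are compared only within a gene.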

Additional observations from a re-analysis of the deposited data

Results flagged for a closer look

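The differences between the pair of index set 1 and the pair of index set 2 were flagged by a test of the difference itself, in the fit that takes the spread from the other 8 libraries. It called 16 genes. Higher in index set 1 on the log2 scale were KLF13 (1.74), NTN4 (1.23), PTPRK (1.09), TLE3 (0.70), PTPRM (0.67) and PLEC (0.63). NTN4, a netrin of basement membranes, went from 21.1 to 44.8 CPM in index set 1 and from 16.7 to 15.1 in index set 2. Among those lower in index set 1 were SHMT1 (-1.37), TUBA3C (-1.27), MCM4 (-1.11), CLSPN (-0.98), FIGNL1 (-0.89), THOP1 (-0.87), MCM3 (-0.73), ANXA1 (-0.66) and HSP90AA1 (-0.64). SHMT1, an enzyme that feeds thymidylate synthesis, went from 10.9 to 5.41 CPM in index set 1 and from 18.1 to 23.2 in index set 2. ANXA1, a phospholipid-binding protein, went from 571.7 to 367.0 CPM and from 458.9 to 465.3. Of 12 alternatives, the 16 genes passed in 5 to 11, with PTPRK and TUBA3C at 11 and MCM4 at 9, and none passed without the index set as a block.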

How the results depend on the processing

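The comparison of 2 groups of 2 called 0 genes with RLE factors, DESeq2, limma-voom, both other count filters, the index set as a replicate block, each pair as a block, only the GFP clone and only the 4 libraries. It called 0 to 1 when a library was left out (1 without GFP_tracer replicate 1). The comparison with the VP16 clone and the mean over clones called 0 throughout, except that without the outlying pair, and with a block for the index set, the first comparison and the comparison with the VP16 clone each called 1. The log2 change of CCL5, 0.84, ran from -2.30 (without GFP_tracer_Dam replicate 1) through -0.12 (without GFP_tracer replicate 2) to 4.73, and that of LMNB1, -0.10, from -2.05 through 0.69 (without GFP_tracer_Dam replicate 1) to 1.62 (without GFP_tracer replicate 2). These fits set libraries of different index sets against each other. CEP112 stayed between 0.56 and 0.72.

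With the spread taken from the other 8 libraries, 414, 1 and 16 genes passed for index set 1, index set 2 and their difference. With no replicate block the counts were 0, 0 and 0; with limma-voom the difference had 9; with at least 5 CPM in 2 libraries index set 2 had 0 and the difference 8. Leaving out 1 library gave 102 to 1679, 1 to 10 and 2 to 515. A group left with 1 library adds nothing to the spread, and leaving out either library of a group gave similar counts. The cause of the range was not tested. The 294, 15 and 2 genes past 1.5-fold in index set 1, index set 2 and both became 1406, 183 and 29 at the lower limit of 0.32 on the log2 scale, 36, 1 and 0 at 2-fold, 689, 246 and 34 at a mean of 1 CPM, and 178, 3 and 0 at 20 CPM. Of 140 list medians under other settings 8 moved, the most that of neural markers in index set 2, from 0.15 to 0.10, and RLE moved the median gene by at most 0.006. With all 12 libraries, adding the index set as a block changed no call of the comparison of 2 groups of 2. The same held for the comparison with the VP16 clone and the mean over clones. Genes at a few counts, such as CCL5 in index set 2, are limited by depth.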
